A study of Mus musculus with 8 samples.

Results

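The nuclear genes for subunits of the respiratory chain and ATP synthase were examined in RNA from cells sorted as CD8 T cells out of B16 tumours. Members were chosen by symbol: genes with a protein-coding transcript whose symbol begins with Nduf followed by a, b, c, s or v and a number (complex I), is Sdha to Sdhd (complex II), or begins with Uqcr (complex III), with Cox and a number from 4 to 8 (complex IV), or with Atp5 (complex V). The rule used no measured value. It found 85 of 55334 genes, with 38 in complex I, 4 in complex II, 8 in complex III, 18 in complex IV and 17 in complex V. A gene was called measured when its mean over both libraries was at least 5 counts per 1000000 of the library (CPM), which held for 77 members and 12177 genes.

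B16 is a mouse melanoma line. Mice received B16 cells intravenously, and the tumours grew for 14 days before sorting. The WT group is wild type C57BL/6, and the CD36_KO group carries the Cd36 knockout, with the same strain given as its background. All samples share the tumour line and the sort, and the labels give neither ages nor the number of animals nor the type of Cd36 allele. The 8 samples are titled as 4 sequencing lanes of 1 library per genotype. They were therefore treated as 1 library each, called WT and CD36_KO below, and no difference between genotypes has a replicate check. The 95% intervals given here cover the counting error of reads only. Without molecular identifiers several reads can come from the same molecule, and the intervals are then too narrow. They also leave out the error of dividing reads among transcripts.

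Complexes I to IV of the inner mitochondrial membrane pass electrons from NADH and succinate to oxygen and, except for complex II, pump protons. Complex V, the ATP synthase, uses the proton gradient to make ATP. Their subunits come from nuclear genes and from mitochondrial DNA, and T cells are known to raise their respiratory capacity as they are activated and to depend on it as memory cells. Cd36 encodes a receptor that takes up fatty acids, a fuel of this pathway.

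Cd36 had 1194 estimated counts in WT and 358 in CD36_KO, with 287, 299, 307 and 301 against 107, 86, 88 and 77 by lane, so the lanes did not overlap and their direction went with the labels. Lanes held from 2497048 to 2611740 counts. The libraries differed in more than Cd36. The 13 CD8 T cell markers, among them Cd8a and Cd3e, summed to between 314 and 324 CPM in WT lanes and to between 1196 and 1237 CPM in CD36_KO lanes, and all 13 were at least 2-fold higher. The 14 melanoma markers, among them Pmel and Dct, summed to between 5415 and 5643 CPM against 1498 to 1561 CPM, and all 14 were at least 2-fold lower. No marker of either list was at 0 in both libraries. The part of these cell types in the values below was not tested, and in bulk RNA fewer cells of a type and less RNA per cell cannot be told apart.

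Respiratory genes have been known for promoters that bind the nuclear respiratory factors NRF1 and GABPA. RefSeq promoter windows (GRCm38.p6, from 250 bases before to 50 after each start) were found for 67 members and searched on both strands. The NRF1 core GCATGCGC stood in the windows of 10 members (14.9%) and of 824 of 27025 genes (3.05%). These 27025 are all genes with a window, measured here or not, and they were not matched to the members for base composition. The 10 genes came from all 5 complexes: Ndufa6, Ndufa8, Ndufa11, Sdhb, Uqcr11, Uqcrc1, Cox6a1, Atp5g2, Atp5k and Atp5l. The YY1 motif AAGATGGCG stood in 7 members (10.4%; 1.64% of all genes). The motif TCAAGGTCA of the estrogen-related receptor ERR alpha stood in 2, Sdhd and Atp5g3 (2.99%; 0.466%). The other motifs were less far from all genes. The ETS motif CCGGAAGT, which GABPA binds, stood in 7.46% of members and 4.31% of genes, and the E-box CACGTG in 7.46% and 8.09%. The hypoxia response core ACGTG stood in 23.9% and 21.8%, and the E-box contains it.

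Windows of 200 bases, from 170 before to 30 after the start, are shown for 4 holders of the NRF1 core from different complexes and for Cox7a2l, the 1 member that was higher in the CD36_KO library. Each is written 5′ to 3′ on the gene's strand, with matches in capitals: the NRF1 core or its reverse complement, which overlap in Atp5g2 and Cox6a1, and in Uqcr11 also the ETS motif. The positions are chr15:102671018-102671217 on the minus strand for Atp5g2, chr5:115348929-115349128 (minus) for Cox6a1, chr10:80406792-80406991 (minus) for Uqcr11, chr4:140961101-140961300 (plus) for Sdhb and chr17:83514304-83514503 (minus) for Cox7a2l.
Atp5g2: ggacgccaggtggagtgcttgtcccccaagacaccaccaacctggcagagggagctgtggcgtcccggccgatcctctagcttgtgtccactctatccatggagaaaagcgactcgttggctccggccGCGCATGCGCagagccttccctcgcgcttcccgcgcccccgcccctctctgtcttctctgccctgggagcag
Cox6a1: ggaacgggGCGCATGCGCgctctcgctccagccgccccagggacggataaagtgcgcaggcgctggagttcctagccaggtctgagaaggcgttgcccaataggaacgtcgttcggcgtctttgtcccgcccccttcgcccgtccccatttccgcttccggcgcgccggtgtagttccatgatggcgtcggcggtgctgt
Uqcr11: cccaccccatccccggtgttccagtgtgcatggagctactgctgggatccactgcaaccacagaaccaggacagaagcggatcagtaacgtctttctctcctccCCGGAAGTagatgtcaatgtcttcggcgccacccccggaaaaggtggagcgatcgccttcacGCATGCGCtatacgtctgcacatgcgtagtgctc
Sdhb: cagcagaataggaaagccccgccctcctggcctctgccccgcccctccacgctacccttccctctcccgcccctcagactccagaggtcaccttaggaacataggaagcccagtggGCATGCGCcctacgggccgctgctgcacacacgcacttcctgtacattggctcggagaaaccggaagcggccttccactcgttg
Cox7a2l: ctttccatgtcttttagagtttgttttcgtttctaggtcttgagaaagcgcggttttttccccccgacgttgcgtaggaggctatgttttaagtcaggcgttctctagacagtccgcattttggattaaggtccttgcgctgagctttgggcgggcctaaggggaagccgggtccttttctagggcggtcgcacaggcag
The Cox7a2l window held none of the motifs searched. Among measured members the median log2 ratio, CD36_KO over WT, was -0.91 for the 10 with the NRF1 core and -0.68 for the 53 without, and it was -0.68 for the 7 with the YY1 motif and -0.70 for the 56 without. For the ETS motif the medians went the other way, -0.57 with and -0.71 without, as they did for the E-box (-0.46 and -0.70) and the hypoxia core (-0.62 and -0.71). For the ERR alpha motif they were -0.88 and -0.69. A match is a description of letters, not a binding site.

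The respiratory subunit genes were lower in the CD36_KO library as a group of small differences. The log2 ratio of CPM, scaled between libraries by the trimmed mean of M-values (TMM), had a median of -0.71 over the 77 measured members, against -0.13 over all measured genes. It was below 0 for 76 members, where 58.9% of all measured genes were below 0. With scaling by total counts alone that count of members was 75. On the log2(TPM + 1) scale, where TPM is transcripts per 1000000, a level per length, it was 48. Set against the median over all measured genes, 76 members were lower with TMM, DESeq2 or total-count scaling and 74 on the log2(TPM + 1) scale, where Cox7a2l, Ndufs7 and Sdha stood above it. The TPM of Ndufs7 and Sdha include transcripts not annotated as protein-coding. The middle of the scale moves between methods, since the median over all genes was -0.13 with TMM, 0.06 with total counts and 0.37 on the log2(TPM + 1) scale.

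The counting interval of the log2 ratio lay below 0 for 72 of 77 members (93.5%), where 40.7% of all measured genes did so. It lay above 0 for Cox7a2l alone (1.30%), against 24.9% of all genes, and it included 0 for Ndufa1, Ndufb4, Ndufs7 and Uqcrc2. All 4 CD36_KO lanes were below all 4 WT lanes in CPM for 55 members (71.4%; 23.6% of all genes) and above them for Cox7a2l (29.0% of all genes), while the lanes of 21 overlapped. A larger difference was no more frequent than elsewhere. At least 2-fold lower with an interval excluding 0 were 8 members, or 10.4%, close to the 10.8% of all measured genes, and none was at least 2-fold higher, against 6.50% of all genes. With total counts 9.14% of all genes were at least 2-fold higher and 7.71% lower, and on the log2(TPM + 1) scale 12.3% and 2.70%. The 8 calls became 6 with total counts and 0 on the log2(TPM + 1) scale. Uqcr11 (-0.9987) and Atp5o (-0.99) lay just short of the limit, and Cox4i1 (-1.01) just past it.

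**Figure D1:**
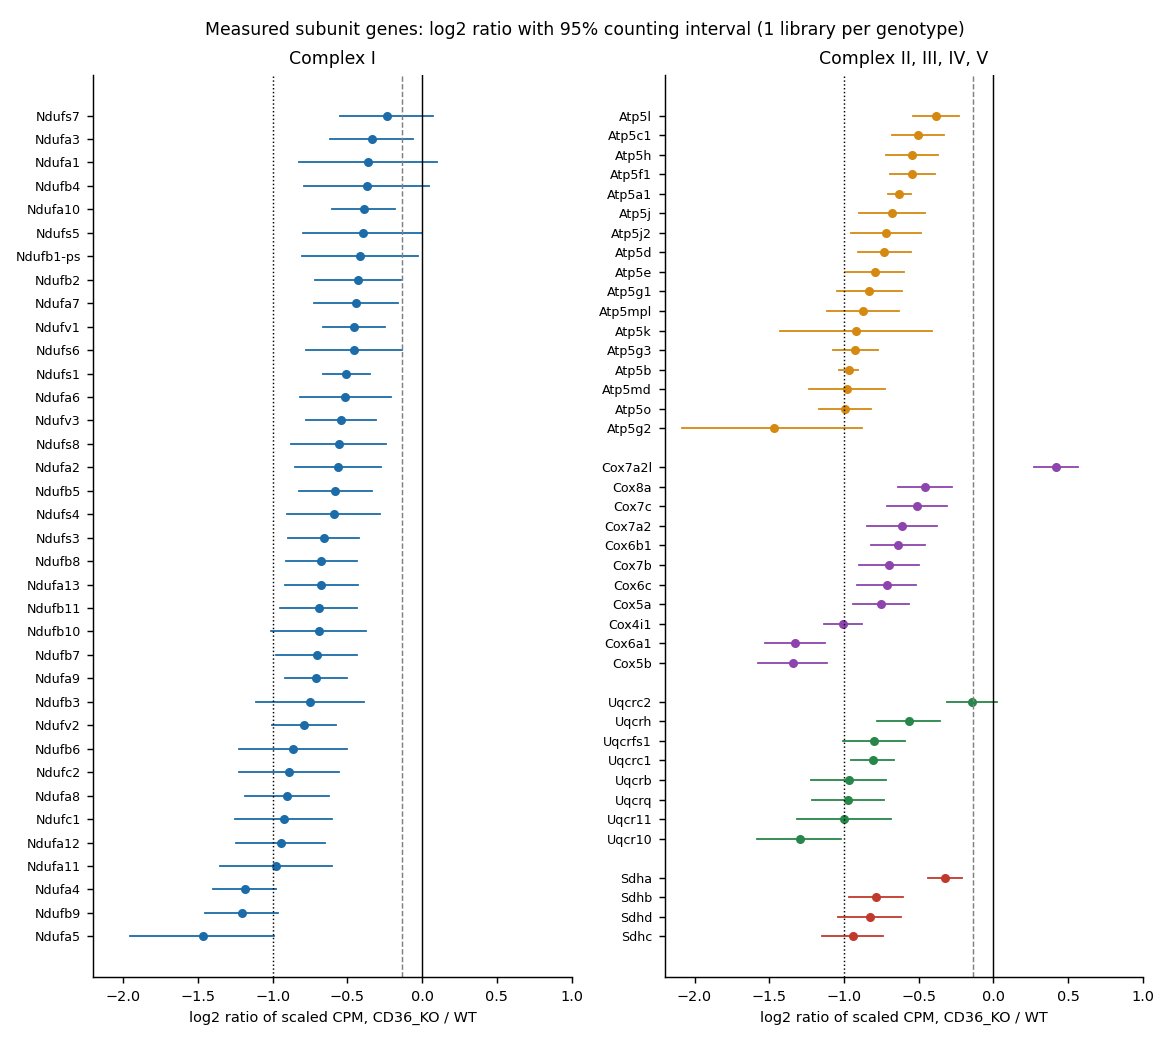
Log2 ratio of TMM-scaled CPM (x axis, CD36_KO over WT) for 76 of the 77 measured subunit genes (rows), coloured by complex, with the 95% counting interval as a line; the solid line marks 0, the dashed line the median of all measured genes (-0.13) and the dotted line a 2-fold lower value. Cox7a2l is the only point above 0, and the medians by complex lie between -0.66 and -0.89.

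Summed over all 85 members, the WT library held 40012 counts, or 0.397% of its total (exact interval 0.393 to 0.401), and the CD36_KO library 28929, or 0.279% (0.276 to 0.282). By lane the sums were 3935 to 4019 CPM against 2749 to 2811 CPM, so the lanes lay far apart. The summed level per length did not separate in this way. It was 3058 ± 126 TPM in WT and 2838 ± 80.0 TPM in CD36_KO (SD over 4 lanes), with lane values of 2871 to 3140 and 2734 to 2928 that overlapped.

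In complex I, the NADH dehydrogenase, the median log2 ratio of 37 measured members was -0.66. All 37 were below 0 on the TMM scale, where 58.9% of all measured genes were. The 7 core subunits encoded in the nucleus, which carry the flavin and iron-sulfur clusters or hold the quinone site, had a median of -0.56. The 30 accessory subunits that surround them had a median of -0.67. This grouping by role, like those below, was made after the values were seen.

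Among the core subunits Ndufs7, which holds the last iron-sulfur cluster, had the highest log2 ratio, with 172 counts in each library and a value of -0.24 (-0.55 to 0.08). Its WT lanes held 44, 42, 39 and 47 counts and its CD36_KO lanes 41.2, 41.7, 44.9 and 44.6, so the lanes overlapped. Over its protein-coding transcripts alone the counts were 163 and 93, and the log2 ratio was -0.89. A transcript of Ndufs7 annotated as lncRNA held 50.7 of its CD36_KO counts and almost none of its WT counts, and dividing reads among overlapping transcripts makes such values uncertain.

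The accessory subunits Ndufa5, Ndufb9 and Ndufa4 were at least 2-fold lower. Ndufa5 (ENSMUSG00000023089.12; GRCm38 chromosome 6, 24518666 to 24528013), a subunit of the matrix arm, held 22, 39, 34 and 29 counts in WT lanes and 8, 12, 20 and 13 in CD36_KO lanes, a log2 ratio of -1.46 (-1.96 to -0.99). All its CD36_KO lanes were below its WT lanes, but an lncRNA transcript took 65.0% and 70.8% of these counts. Ndufb9 (ENSMUSG00000022354.4; chromosome 15, 58933756 to 58939488), in the membrane arm, held 101, 112.5, 90 and 115 against 57, 51, 62 and 43.6 counts, a log2 ratio of -1.21 (-1.45 to -0.97). Its lanes stood well apart. Ndufa4 (ENSMUSG00000029632.7; chromosome 6, 11900292 to 11907497) is named for complex I and is also known as a subunit of complex IV. It held 130, 147, 148 and 123 against 82, 68, 67 and 67 counts, a log2 ratio of -1.19 (-1.40 to -0.98), again without overlap. The other 34 measured members of complex I ranged from -0.98 (Ndufa11) to -0.24 (Ndufs7). Ndufa3, with 226 and 211 counts, was next to Ndufs7 at -0.34 (-0.61 to -0.06), and its lanes overlapped.

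Complex II, the succinate dehydrogenase, belongs to the citric acid cycle as well and has no subunit encoded in mitochondrial DNA. Its iron-sulfur subunit Sdhb held 163, 164, 142 and 158 counts in WT lanes and 110, 98, 101 and 120 in CD36_KO lanes, a log2 ratio of -0.79 (-0.97 to -0.61). The membrane anchors Sdhc (522 and 321 counts) and Sdhd (477 and 317) had -0.94 (-1.14 to -0.74) and -0.83 (-1.04 to -0.62). The lanes of these 3 genes did not overlap. Sdha (ENSMUSG00000021577.14; chromosome 13, 74322254 to 74350280), the flavoprotein that binds succinate, stood apart. It held 320, 342, 299 and 325 counts in WT lanes and 285, 312, 297 and 320 in CD36_KO lanes, a log2 ratio of -0.32 (-0.44 to -0.21) that was 0.63 on the log2(TPM + 1) scale. These lanes overlapped. Sdha made up 67.2% (65.1 to 69.3) of the joint counts of Sdha and Sdhb in WT and 73.9% (71.7 to 76.0) in the CD36_KO library. The scaling between libraries plays no part in these shares, but length can. Sdha has 2765 bases and Sdhb 1143. Other protein-coding genes of 2000 to 3000 and of 1000 to 1500 bases had median log2 ratios of -0.18 and -0.35. In TPM the share of Sdha was 50.2% in WT and 64.7% in CD36_KO. The part of length in these shares was not tested.

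Complex III, the cytochrome bc1 complex, had 8 measured members with a median log2 ratio of -0.89. Its small subunits Uqcrb, Uqcrh, Uqcrq, Uqcr10 and Uqcr11 had a median of -0.97, and the Rieske iron-sulfur protein Uqcrfs1 had -0.80 (-1.004 to -0.59). Uqcr10 (ENSMUSG00000059534.8; chromosome 11, 4701973 to 4704342) was at least 2-fold lower, with 83, 64, 78 and 98 counts in WT lanes and 45, 30, 32 and 48 in CD36_KO lanes, and a log2 ratio of -1.30 (-1.58 to -1.02). Its lanes did not overlap. Those of Uqcr11, with 37, 71, 55 and 64 against 41, 31, 32 and 30 counts, did, since WT lane 1 was low and CD36_KO lane 1 high.

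The core proteins Uqcrc1 and Uqcrc2, which form a pair on the matrix side, differed from each other. Uqcrc1 held 266, 208, 253 and 249 counts in WT lanes and 145, 179, 179 and 155 in CD36_KO lanes, a log2 ratio of -0.81 (-0.95 to -0.66), without overlap. Uqcrc2 (ENSMUSG00000030884.12; chromosome 7, 120635176 to 120659524) held 139, 141, 162.9 and 135.9 against 161, 157.7, 147 and 151.9, a log2 ratio of -0.14 (-0.31 to 0.02) that was 0.21 on the log2(TPM + 1) scale. Its lanes overlapped. Uqcrc2 took 37.2% (34.8 to 39.7) of the counts of the pair in WT and 48.4% (45.7 to 51.2) in the CD36_KO library. In TPM its share was 39.8% and 45.5%. The pairs within a complex given for complexes II, III and V were chosen after their values were seen.

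Complex IV, the cytochrome c oxidase, held 3 of the 8 genes at least 2-fold lower and the only higher one. Its median was -0.70 over 11 measured members. Cox5b (ENSMUSG00000061518.11; chromosome 1, 36691449 to 36693681), which binds zinc on the matrix side, held 107, 119, 134 and 127.9 counts in WT lanes and 64, 50.8, 54 and 58 in CD36_KO lanes, a log2 ratio of -1.34 (-1.58 to -1.11). Cox6a1 (ENSMUSG00000041697.8; chromosome 5, 115345642 to 115348981), a subunit with a separate form in muscle, held 164, 151, 172 and 165 against 74, 78, 78 and 77 counts, a log2 ratio of -1.32 (-1.53 to -1.13). The CD36_KO lanes of both genes lay far below their WT lanes. Cox4i1 (ENSMUSG00000031818.12; chromosome 8, 120668222 to 120674207), the largest nuclear-encoded subunit, held 348.6, 372, 314.4 and 368.8 against 207.4, 203.8, 192 and 220.7 counts, a log2 ratio of -1.01 (-1.13 to -0.88). Its lanes did not overlap either, yet it passed the 2-fold limit only just, and it was under that limit with DESeq2 scaling, total counts or log2(TPM + 1), over protein-coding transcripts alone and when any 1 of 6 of the 8 lanes was left out. At the weak end were Cox8a, with 542 and 465 counts and -0.46 (-0.64 to -0.28), and Cox7c, with 450 and 373 counts and -0.51 (-0.71 to -0.31).

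Cox7a2l (ENSMUSG00000024248.14; chromosome 17, 83501918 to 83517330), which is related to Cox7a2, was higher in the CD36_KO library. It has been studied as a factor that joins complexes III and IV into supercomplexes, a function not measured here. It held 160, 151, 164 and 156 counts in WT lanes and 250.6, 248.1, 248 and 247 in CD36_KO lanes, a log2 ratio of 0.42 (0.27 to 0.56). All CD36_KO lanes were above all WT lanes. The log2 ratio was 0.43 with DESeq2 scaling, 0.61 with total counts and 0.97 on the log2(TPM + 1) scale, and 0.58 (0.44 to 0.73) over protein-coding transcripts alone. Next to it came Uqcrc2 at -0.14, so no other measured member was above 0 on the TMM scale. Cox7a2, the subunit it resembles, held 87, 97, 88 and 70 against 71, 71, 60 and 62 counts, a log2 ratio of -0.61 (-0.85 to -0.38). Cox7a2l accounted for 64.9% (61.8 to 67.9) of the joint counts of both genes in WT and 79.0% (76.7 to 81.2) in the CD36_KO library, with lane ranges that did not overlap. Counts rise with length, and Cox7a2l is the longer gene. In TPM its share was 49.9% in WT and 64.3% in CD36_KO. The counts of Cox7a2l in CD36_KO lanes 1 and 2 were not whole, so some of its reads there were divided with other entries of the index.

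**Figure D2:**
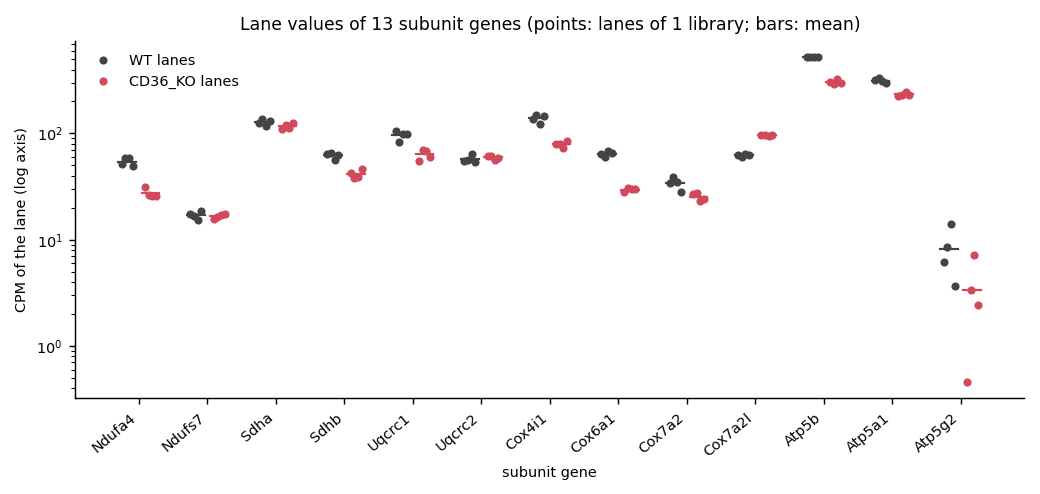
CPM of the lane (y axis, log scale) for 13 subunit genes (x axis), with 1 point per lane, 4 lanes of 1 library per genotype, and the lane mean as a bar. Cox7a2l has its CD36_KO lanes above its WT lanes, Ndufs7, Sdha, Uqcrc2 and Atp5g2 overlap, and the others have all CD36_KO lanes below.

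In complex V, the ATP synthase, the 17 measured members had a median of -0.80, and the counting interval lay below 0 for all 17. The subunits of the catalytic head and its stalk had a median of -0.73, the peripheral stalk -0.61, the c ring -0.92 and the other membrane subunits -0.87. Atp5b (ENSMUSG00000025393.12; chromosome 10, 128083273 to 128090391), the catalytic beta subunit, held 1328.5, 1310.5, 1321.9 and 1309 counts in WT lanes and 794.2, 754.7, 851.1 and 775.4 in CD36_KO lanes, a log2 ratio of -0.97 (-1.03 to -0.91). Its partner in the head, the alpha subunit Atp5a1, held 3174 and 2421 counts and had -0.63 (-0.71 to -0.55). Lanes overlapped for neither gene. Atp5a1 made up 37.6% (36.6 to 38.6) of the joint counts of both in WT and 43.3% (42.0 to 44.6) in the CD36_KO library. In TPM its share was 28.9% and 35.2%. The highest ratios of the complex were those of Atp5l, a membrane subunit between ATP synthase dimers, at -0.38 (-0.54 to -0.23), and of the stalk subunit Atp5c1 at -0.50 (-0.68 to -0.33).

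Atp5g1, Atp5g2 and Atp5g3 encode the same mature c subunit, which forms the rotor ring in the membrane. Together they held 1447 counts in WT and 902 in CD36_KO. Atp5g3 took 64.1% and 64.0% of these, Atp5g1 30.2% and 32.2%, and Atp5g2 5.67% and 3.88%. Atp5g2 (ENSMUSG00000062683.11; chromosome 15, 102662864 to 102672352) had a log2 ratio of -1.47 (-2.08 to -0.88) and passed the 2-fold limit. Its lanes overlapped, with 15.8, 21.3, 35.9 and 9.1 counts against 1.2, 8.6, 18.8 and 6.3, and the fractions show that its reads were divided with similar sequences, so the value is uncertain. Without WT lane 3 it was -0.99 and under the limit. Atp5g3, with whole counts of 928 and 577, had -0.92 (-1.08 to -0.77), and Atp5g1 -0.83 (-1.05 to -0.61).

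Levels can be compared between genes only per length. Measured members had a median of 31.4 TPM in WT and 29.1 TPM in CD36_KO, above the medians of all measured genes, which were 5.74 and 7.86 TPM. In TPM the highest member was Atp5b, at 176 ± 5.3 and 128 ± 13 TPM (SD over 4 lanes), and Cox4i1 followed at 120 ± 12 and 93.8 ± 6.0 TPM. Within complex V, by the mean of both libraries, Atp5e, the small epsilon subunit, came next at 95.1 ± 13 and 88.2 ± 11 TPM. Atp5mpl had 86.1 ± 5.5 and 80.3 ± 5.5 TPM, and Atp5l, at 78.1 ± 3.5 and 84.1 ± 10 TPM, was above it in CD36_KO. Neighbours in this order overlap within their SD and are not resolved. In complex IV Cox6b1 had 79.6 ± 8.5 and 77.2 ± 13 TPM. In complex I Ndufa4 was highest in WT, at 72.4 ± 11 TPM against 41.1 ± 6.0 TPM for Ndufa3. In CD36_KO these genes had 48.5 ± 5.4 and 51.8 ± 5.8 TPM, which overlap within their SD. Of the Ndufa3 level, 12.7 TPM in WT and 17.1 TPM in CD36_KO lay on Ndufa3-204, a transcript not annotated as protein-coding. In complex III Uqcr10 (57.3 ± 11 and 38.4 ± 9.0 TPM) and Uqcrh (56.4 ± 2.0 and 72.1 ± 6.2 TPM) were not apart in WT and were in CD36_KO. That order in CD36_KO did not hold for their coding transcripts. Uqcr10-201 had 54.4 TPM in WT and 35.6 TPM in CD36_KO, and Uqcrh-202 had 46.4 and 27.4 TPM. In complex II Sdha and Sdhb had 31.7 ± 5.7 and 31.4 ± 2.2 TPM in the WT library, but 49.8 ± 7.0 and 27.2 ± 2.7 TPM in the CD36_KO library. Across the 77 members the TPM values of both libraries had a Pearson correlation of 0.94 and a Spearman correlation of 0.94, as a description over genes that share the same libraries.

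**Figure D3:**
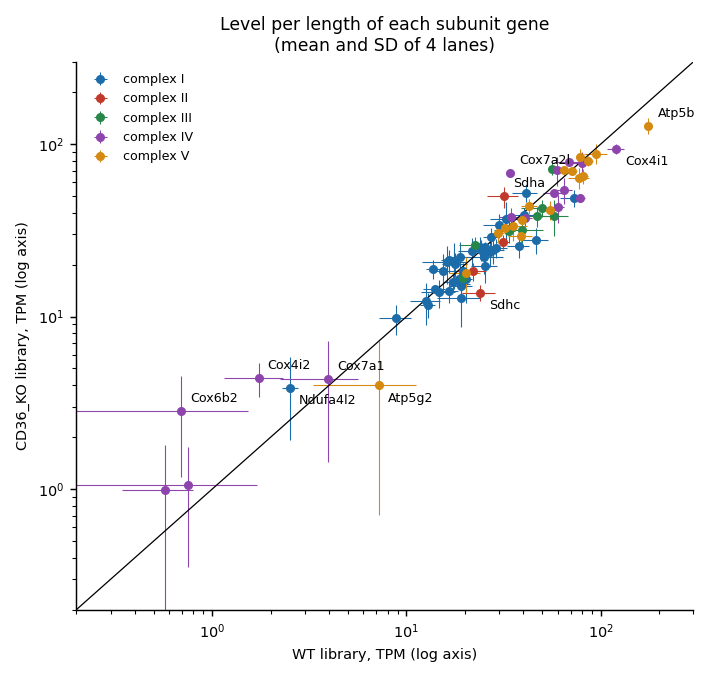
Level per length in TPM of each subunit gene in the WT library (x axis, log scale) and the CD36_KO library (y axis, log scale), coloured by complex, with bars for the SD over 4 lanes, which leave the plot where they reach 0; the line marks equal levels. Atp5b is highest, 29 of the 77 measured genes lie above the line, Cox7a2l and Sdha among them, and the tissue isoforms of complex IV stand at the low end.

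Several subunits of complexes I and IV have tissue forms from separate genes, and 8 such genes fell below 5 CPM. Cox6a2, Cox7a1 and Cox8b, the heart and skeletal muscle forms, had 6, 19 and 3 counts in WT and 8, 18 and 3 in CD36_KO. Of 19 heart and muscle markers only Ryr2 reached 5 CPM. The testis forms Cox6b2, Cox7b2 and Cox8c had 4, 0 and 0 against 13, 1 and 0 counts. Thus 1 count of Cox7b2 and none of Cox8c was seen in either genotype, and 0 counts in a library allow up to 3.

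The forms linked to low oxygen had more counts. Cox4i2, the form of Cox4i1 known from lung and low oxygen, had 20 and 39 counts. Its share of the joint counts of Cox4i1 and Cox4i2 was 1.40% (0.860 to 2.16) in WT and 4.52% (3.23 to 6.13) in the CD36_KO library. Ndufa4l2, the relative of Ndufa4 induced by hypoxia, had 36 and 44 counts, and its share with Ndufa4 was 6.16% (4.35 to 8.43) and 13.4% (9.92 to 17.6). The counts of Ndufa4 and Cox4i1 in these shares were much the larger and were lower in the CD36_KO library, while the log2 ratio of Ndufa4l2 itself was 0.05 and that of Cox4i2 was 0.73 (-0.09 to 1.58). Lane shares of Cox4i2 were 0.800% to 1.86% and 3.52% to 5.47%, without overlap, and those of Ndufa4l2 5.77% to 6.82% and 9.46% to 20%. In TPM the shares in WT and CD36_KO were 1.43% and 4.47% for Cox4i2, and 3.35% and 7.37% for Ndufa4l2.

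The members are short genes, and the libraries differed in how length bears on a value. The count-weighted transcript length of measured members had a median of 790 bases, against 2890 bases over all measured genes. The deposited effective lengths imply a mean fragment of 159.81 to 161.08 bases in WT lanes and of 194.02 to 194.56 bases in CD36_KO lanes. Other protein-coding genes of up to 600 bases had a median of -0.47, and over the longer classes the median ran, not strictly in order, to -0.01 above 5000 bases. Within their own length class, 67 of 77 members were below the median of the other genes and 10 above it. After subtraction of that median the members had a median of -0.33, and of the 8 calls at 2-fold only that of Atp5g2 was left. Over members themselves the log2 ratio and length had a Pearson correlation of 0.26 and a Spearman correlation of 0.22, as a description. The part of fragment length in the difference was not tested beyond these values.

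**Figure D4:**
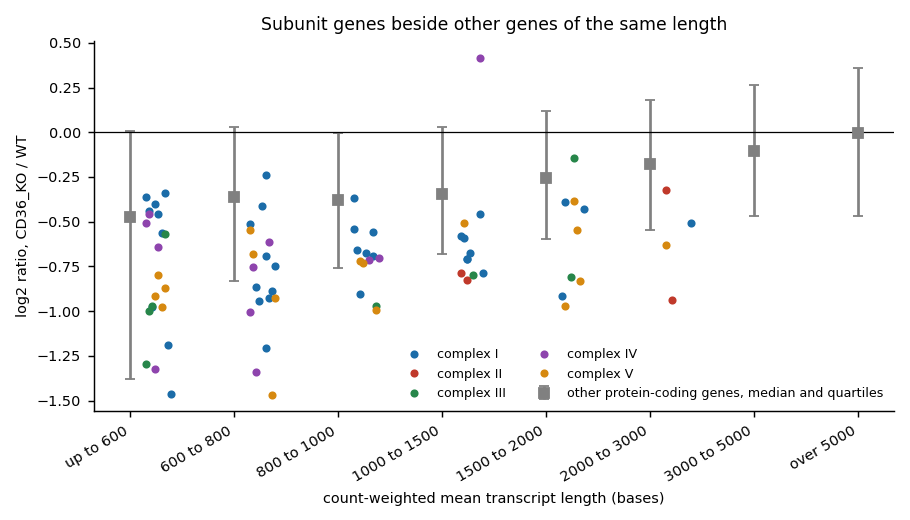
Log2 ratio of TMM-scaled CPM (y axis, CD36_KO over WT) by class of transcript length in bases (x axis): grey squares and bars are the median and quartiles of other measured protein-coding genes, and coloured points are the subunit genes by complex. Grey medians run from -0.47 to -0.01, and 67 of the 77 subunit genes lie below the grey median of their class.

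Part of the members' counts fell on transcripts that are not annotated as protein-coding, 8.33% in WT and 11.9% in the CD36_KO library. Over all measured genes with a protein-coding transcript the same shares were 11.6% and 14.0%. Transcripts with a retained intron took 4.32% (4.12 to 4.53) of the members' counts in WT and 7.30% (7.00 to 7.61) in the CD36_KO library, against 6.89% and 8.98% over those genes. Lane shares of the members were 3.86% to 4.81% and 6.69% to 7.93%, without overlap. Uqcrh, the hinge protein of complex III, was the clearest case. Its retained-intron transcript Uqcrh-205 had 43.2 counts in WT and 165 in CD36_KO, while its coding transcript had 367 and 161. Over coding transcripts alone Uqcrh had a log2 ratio of -1.27 (-1.55 to -0.998), in place of -0.57 (-0.78 to -0.36) over the gene. Cox4i1-202, another retained-intron transcript, had 19.2 and 59.1 counts, and Ndufb7-202 had 32.4 and 59.4. Ndufc1-203 went the other way, with 81.4 and 17.5 counts, and over coding transcripts alone Ndufc1 had 0.18 (-0.29 to 0.65) in place of -0.93 (-1.25 to -0.60). These transcripts and genes were chosen after their values were seen. They share exons with the coding form, so the division of reads among them is an estimate.

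Genes that work with the subunits were taken from lists drawn up by function. The assembly factors of complex I had a median of -0.25, and of 14 measured none was 2-fold higher or lower. Those of complexes II to V had -0.30, and Uqcc2, an assembly factor of complex III, was the 1 of 23 that was 2-fold lower, at -1.22 (-1.58 to -0.87). The electron carriers and respiratory genes outside the symbol rule had -0.35, with 3 of 18 at least 2-fold lower: Higd1a (-1.18), a respiratory factor raised by low oxygen that stands in the hypoxia list too, Etfb (-1.07), a subunit of the electron transfer flavoprotein, and Cyc1 (-1.001), the cytochrome c1 of complex III. Cytochrome c itself, Cycs, had 394 and 290 counts and -0.68 (-0.90 to -0.46).

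The citric acid cycle list came closest to the subunits. Its median was -0.59, the interval lay below 0 for 14 of 17 genes, and Idh2, the mitochondrial isocitrate dehydrogenase that makes NADPH, was 2-fold lower at -1.23 (-1.43 to -1.04). The mitochondrial ribosomal proteins had a median of -0.39, with 3 of 74 at least 2-fold lower, and the cytosolic ribosomal proteins 0.06, with 1 of 86. The 13 subunits encoded in mitochondrial DNA had a median of 0.06. Of these, mt-Co1, the catalytic subunit of complex IV, had 0.23 (0.22 to 0.23), and mt-Atp8 (-2.23) and mt-Nd6 (-1.86) were 2-fold lower. The last pair overlap other mitochondrial genes, on the same strand for mt-Atp8 and on the opposite one for mt-Nd6. Reads from the shared stretches cannot be told apart with certainty. The part of this overlap in their values was not tested.

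Regulators of mitochondrial gene expression had a median of -0.01. Ppargc1a, the coactivator PGC-1 alpha, was the 1 of 15 that was 2-fold lower, with 543 and 108 counts and a log2 ratio of -2.57 (-2.88 to -2.27). Nrf1, which binds the motif shown above, had 271 and 422 counts and 0.40 (0.18 to 0.63), Gabpa 405 and 416 counts and -0.20 (-0.40 to 0.00), and Esrra, which encodes ERR alpha, -0.01 (-0.29 to 0.26). The hypoxia list had a median of -1.76, with 10 of 14 genes at least 2-fold lower. Bnip3, a mitophagy receptor, stood at -2.50 and Slc2a1, a glucose transporter, at -1.75, while Epas1, which encodes HIF-2 alpha, was higher at 1.44. On the log2(TPM + 1) scale the median of the hypoxia list was -0.82. There 5 pathway lists turned from below to above 0, with medians of 0.29 for complex I assembly, 0.26 for complex II to V assembly, 0.21 for the electron carriers, 0.09 for the citric acid cycle and 0.11 for the mitochondrial ribosomal proteins, each below the 0.37 of all genes. The regulators turned as well, to 0.45, above it.

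**Figure D5:**
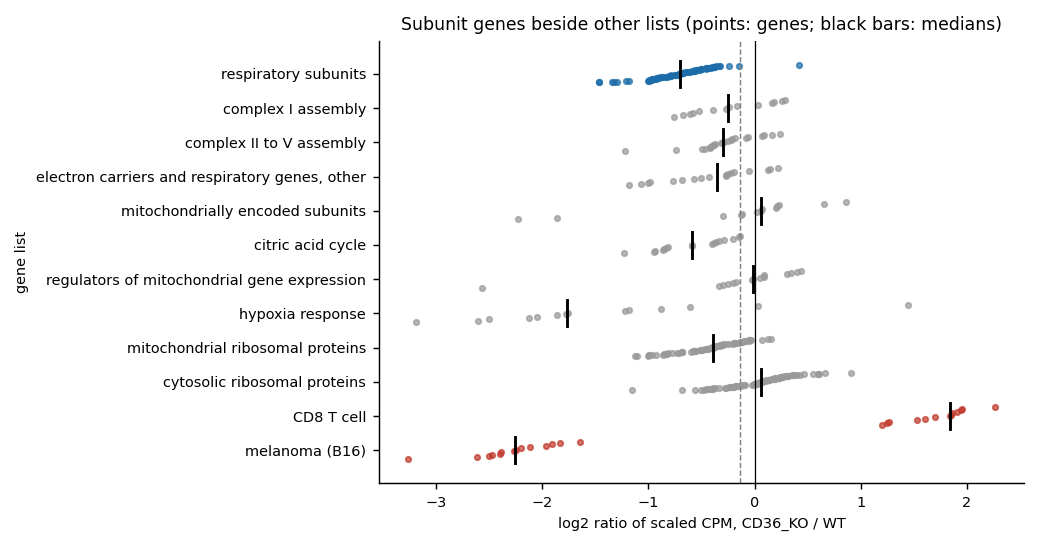
Log2 ratio of TMM-scaled CPM (x axis, CD36_KO over WT) of the measured genes in each list (rows; 1 point per gene, black bar for the median); the dashed line is the median of all measured genes (-0.13). The subunit genes (blue) have a median of -0.71, the citric acid cycle -0.59 and the hypoxia list -1.76, and the CD8 T cell and melanoma markers (red) lie at 1.84 and -2.26.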

How the data were processed

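Each deposited file lists, per transcript, kallisto's estimated counts, TPM and effective lengths, per the file headers. The authors' estimated counts need not be whole and were not normalised, and the deposited TPM are scaled for effective length and lane total. Kallisto, DESeq2 and GRCm38.p6 are named in the submitters' processing notes; the sources used here give no versions, read layout or strand setting. Counts were summed over transcripts of a gene and over lanes, then rounded, which gave library totals of 10071960 (WT) and 10363391 (CD36_KO). Atp5o stands under 2 gene IDs, which were joined.

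Libraries were scaled with TMM (edgeR 4.0.16, R 4.3.3; factors 0.934 and 1.07). The log2 ratio of CPM carries an exact Clopper-Pearson interval at 95%. Called at least 2-fold means an absolute log2 ratio of at least 1 with an interval excluding 0. With 1 library per genotype no test, p-value or standard error is given. Alternatives were DESeq2 1.42.0 size factors, total counts, log2(TPM + 1) and log2(TPM + 0.1), minimum levels of 20 CPM or 1 count, a 1.5-fold limit, protein-coding transcripts, genes with whole counts (within 0.01), each lane left out and, chosen after seeing the data, centring by transcript length. The ratio, interval and call steps were tested on simulated counts with counting error only. TMM scaling, length centring and the shares of paralogs and transcripts were not part of that test. Positions are those of GENCODE M21. The values of 1 member are not reported here. Figures used matplotlib 3.10.9.

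The members and lists were chosen with earlier results of these data known. Named genes are all members past the 2-fold limit, the 2 highest and 2 lowest log2 ratios and the 2 highest levels of each complex, isoform pairs, complex II, and list genes past the limit; other genes named were chosen after their values were seen. Marker lists, of which 9 were used, are those of CD8 T cells, melanoma, macrophages, hepatocytes, B cells, fibroblasts, erythroid cells, muscle and pericytes.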

Additional observations from a re-analysis of the deposited data

Results flagged for a closer look

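In 6 of 72 groups of 4 lanes that were examined, a lane stood apart from the other 3 by a larger part of the range than Dixon's critical value at 95% allows. Chance flags about 1 group in 20. The CPM of complex II summed to 260.5 in WT lane 3 and to 296.5 to 302.0 in the other WT lanes. In CD36_KO lane 1, Ndufa4 stood at 31.4 CPM (others 25.66 to 26.46), Sdhc at 36.05 CPM (28.51 to 29.71) and Uqcr11 at 15.7 CPM (11.67 to 12.25), each above the other lanes. Atp5g3 stood at 47.07 CPM in CD36_KO lane 4 (others 57.98 to 58.97), and Cox8a at 46.69 CPM in CD36_KO lane 2 (others 44.03 to 44.42). These are lanes of 1 library, and their differences are technical.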

How the results depend on the processing

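No paired analysis was possible because the shared lane numbers belong to lanes of 1 library per genotype and the results come from no test. None of the 8 genes called 2-fold lower changed sign in an alternative that gave it a value, but on the log2(TPM + 1) scale 29 of 77 members were above 0. The 8 members at least 2-fold lower became 50 at a 1.5-fold limit, 4 among genes with whole counts, 1 after centring by length and 0 on both TPM scales. They were 6 to 14 with a lane left out, 14 without CD36_KO lane 1. Only whole counts left 40 members with an interval below 0 and 0 above, and protein-coding transcripts put 2 above, the second being Cox4i2. The members' median of -0.71 was -0.69 with DESeq2 factors, -0.51 with total counts, -0.11 on both TPM scales, -0.69 without a minimum, -0.72 with whole counts, -0.64 with protein-coding transcripts, -0.33 after centring and -0.73 to -0.64 with a lane left out. Less the median of all genes (-0.57), it was -0.37 after centring, -0.48 and -0.55 with TPM plus 1 and plus 0.1, -0.55 at 20 CPM, -0.68 without a minimum, -0.46 with whole counts and -0.60 to -0.55 with a lane left out. For complexes I, III, IV and V in turn the medians were -0.29, -0.51, -0.32 and -0.40 after centring, -0.054, -0.22, -0.12 and -0.11 with TPM plus 1, -0.055, -0.22, -0.13 and -0.11 with TPM plus 0.1, and -0.46, -0.69, -0.50 and -0.60 with total counts. Protein-coding transcripts gave -0.52, -0.79 and -0.68 for I, III and V, and complex IV had -0.56 without a minimum. With a lane left out they ran from -0.65 to -0.54 (I), -0.91 to -0.76 (III), -0.70 to -0.58 (IV) and -0.82 to -0.68 (V). The causes of these shifts were not tested. Counts limit the genes below 5 CPM, and 1 library per genotype limits every comparison.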

Other observations

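Markers of other cells also differed between the libraries. Of 13 measured hepatocyte markers 12 were higher by at least 2-fold in CD36_KO, with a median log2 ratio of 2.44, and the list summed to 452 to 484 CPM in WT lanes and 1351 to 1387 CPM in CD36_KO lanes. Of 8 B cell markers 7 were at least 2-fold higher (median 2.5002; 68.8 to 76.7 against 261 to 276 CPM), as were all 5 measured erythroid markers (median 1.62; 307 to 347 against 1121 to 1132 CPM). Of 7 fibroblast markers 5 were at least 2-fold lower and 1 higher (median -1.32; 1092 to 1133 against 355 to 365 CPM). Of 14 macrophage and monocyte markers 4 were lower and 1 higher (median -0.39, and 0.10 on the log2(TPM + 1) scale; 5745 to 5823 against 4474 to 4508 CPM). The 4 measured pericyte markers had a median of 0.17 and summed to 82.8 to 98.6 against 99.3 to 110 CPM. The 19 muscle markers summed to 14.2 to 17.5 against 22.0 to 32.5 CPM, and 2 of them were at 0 in both libraries. The part of these cells in the levels of respiratory subunits was not tested.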
